A study of Homo sapiens with 5 samples.

Results

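The genes described here build the oxidative phosphorylation system of Rh41, a cell line of human alveolar rhabdomyosarcoma, a muscle-lineage tumour. They were followed after depletion of H3F3A, a gene for the replication-independent histone H3.3. Gene rows were chosen by name, as NADH dehydrogenase (NDUF), succinate dehydrogenase (SDH), cytochrome bc1 (UQCR and CYC1), cytochrome c oxidase (COX4 to COX8) and ATP synthase (ATP5) subunits, plus the genes of the mitochondrial genome. The rule found 90 of the 43714 gene rows, 88 of them nuclear and 2 mitochondrial. The 2 mitochondrial rows are RNR1 and RNR2, the ribosomal RNAs, and the other 13 mitochondrial names, all of protein-coding genes, were not analysed here. Enough reads for a test were present for 77 nuclear rows and both mitochondrial rows.

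Cells of both groups carry the genotype label FP-RMS, fusion-positive rhabdomyosarcoma, and were transfected with Lipofectamine RNAiMAX. The control group received scrambled siRNA (2 libraries, replicates 1 and 3) and the knockdown group H3F3A siRNA (3 libraries, replicates 1, 2 and 3), each for 48 hours. Poly-A RNA was sequenced to 28493573 to 30705963 reads assigned to genes per library. A single cell line was used, so the values describe Rh41 and no other tumour.

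Oxidative phosphorylation passes electrons from NADH (complex I) and succinate (complex II) through complex III to oxygen at complex IV. The proton gradient made on the way drives ATP synthase, complex V. Complexes I, III, IV and V combine subunits made in the cytosol from nuclear genes with a few made inside the mitochondrion from its own DNA, whereas complex II is wholly nuclear. Proliferating myoblast-like cells use both glycolysis and respiration, and respiratory subunits rise when muscle matures.

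The knockdown was present in every library labelled with it. H3F3A read 293.9 and 268.9 CPM (counts per 1000000 TMM-scaled reads) in the scrambled siRNA libraries and 9.38, 10.5 and 8.54 CPM in the H3F3A siRNA libraries. The level was 29.7-fold lower (log2 fold change -4.89, SE 0.0923). H3-3B, the other gene for H3.3, averaged 820.8 CPM in scrambled siRNA and 818.8 CPM in H3F3A siRNA libraries (log2 fold change -0.003, SE 0.0754). Transcripts for H3.3 therefore remained, and the results below describe depletion of H3F3A alone. Of 10 muscle lineage genes, 8 averaged at least 1 CPM, with MYF5 and MYF6 below it. Their summed level was 6768.0 and 5598.3 CPM in scrambled siRNA and 4853.3 to 4974.1 CPM in H3F3A siRNA libraries, and the part of this shift in the results below was not tested. The sum rests on the abundant genes. Mean CPM in scrambled and H3F3A siRNA libraries was 1983.6 and 1405.2 for FGFR4, 1340.4 and 1094.9 for MYOD1, and 946.9 and 826.3 for CHRNA1. It was 835.0 and 674.8 for DES and 768.1 and 611.1 for CDH15. MYOG (239.9 and 235.0), PAX3 (56.9 and 53.1) and CHRNG (12.3 and 13.2) differed less. Immune markers summed to 0.129 to 0.436 CPM (0 of 4 at 1 CPM), endothelial ones to 2.07 to 2.93 CPM (1 of 3), epithelial ones to 5.2 to 6.65 CPM (2 of 4) and fibroblast ones to 63.1 to 89.0 CPM (2 of 5, with DCN, LUM and THY1 below 1 CPM). In bulk RNA, fewer cells of a type and less RNA per cell cannot be told apart.

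No oxidative phosphorylation gene passed the test after H3F3A depletion. With edgeR's quasi-likelihood test and Benjamini-Hochberg adjustment over 15859 genes, 0 of 77 nuclear and 0 of 2 mitochondrial members had an adjusted p under 0.05, where 3.2% of all tested genes did (2.69% lower and 0.504% higher). DESeq2 called 0 members as well, and 4.92% of the genes it gave an adjusted p. At an unadjusted p under 0.05 there were 6 of 79 members, beside 16.8% of all genes. Of these, NDUFS8, NDUFS7 and ATP5F1D were lower (all genes 10.9%) and NDUFS4, RNR1 and RNR2 higher (all genes 5.91%). Groups did not overlap for 5 nuclear members on the lower side and 10 on the higher side, where the shares over all genes were 17.1% and 16.0%, or 33.1% in either direction. The count of calls turned on 1 control library. Without scrambled replicate 3, 7 nuclear members were lower with an adjusted p under 0.05, where 15.1% of all genes were called. With no count filter 1 member, ATP5F1D, was called, where 2.8% of all genes were.

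Most intervals were narrow, but they cover only the spread among these libraries, possibly a technical one. They do not cover the choice of processing, and GC correction turned the sign of 27 of 79 members. Log2 fold changes of the 77 nuclear members ran from -0.32 to 0.28 with a median of 0.005, beside 0.007 over all tested genes, with 37 below and 40 above 0. The median size of the change, without its sign, was 0.0654 for these members and 0.125 for all genes. The 95% interval lay within 0.5 log2 of 0 for 71 of the 77 members (92.2%), and within 1 log2 for all 77. Over all genes 64.7% lay within 0.5 log2. The members' median standard error was 0.0807 and that of all genes 0.0995.

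**Figure D1:**
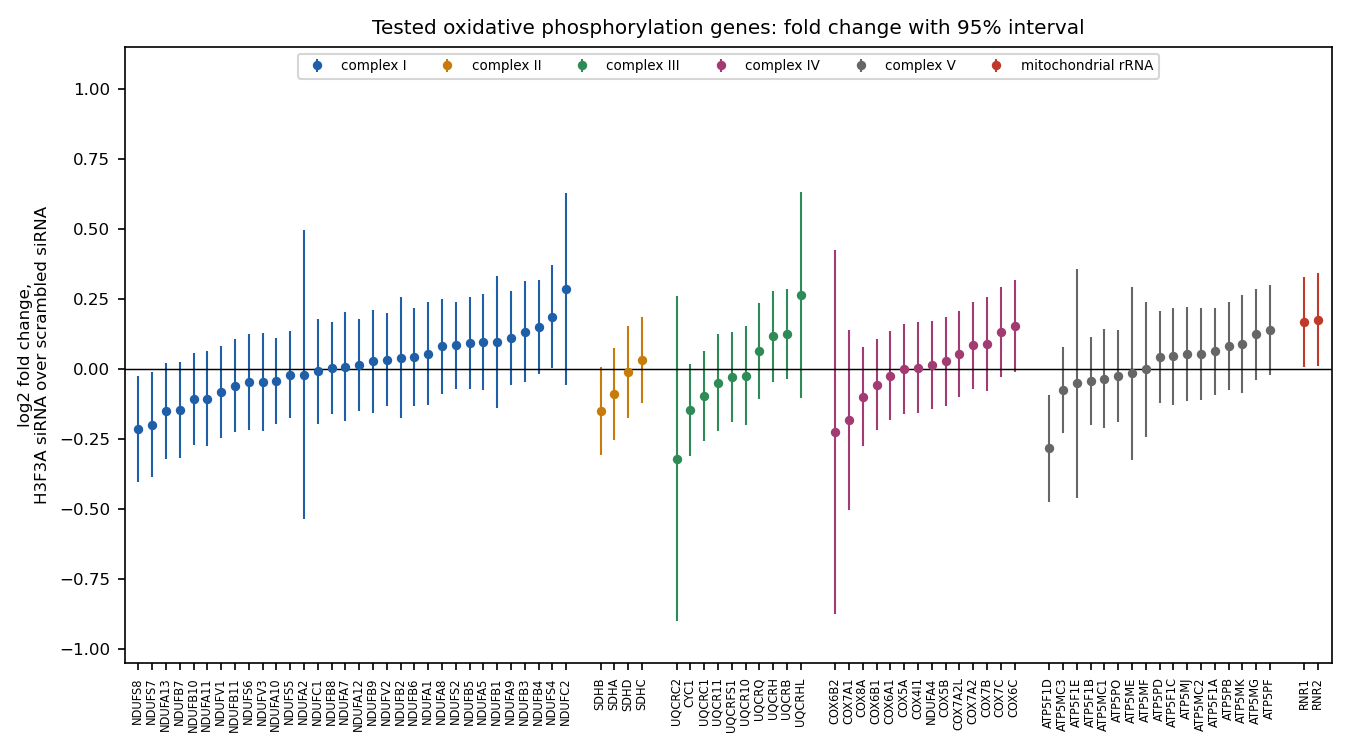
Log2 fold change (H3F3A siRNA over scrambled siRNA, y axis) of each tested member (x axis, grouped by complex), with bars for the 95% interval. Nuclear members lie between -0.32 and 0.28, and none passed the adjusted threshold.

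The summed level of each of the 5 complexes overlapped between the groups. Complex I subunits together read 2370.5 and 2195.5 CPM in scrambled siRNA libraries and 2351.6, 2134.8 and 2282.4 CPM in H3F3A siRNA libraries. Complex II read 372.1 and 365.3 CPM against 371.0, 344.9 and 348.0 CPM. Complex III read 1237.1 and 1146.4 CPM against 1239.3, 1110.3 and 1181.6 CPM. In complexes I and III the lowest library was a knockdown one and the others lay near the scrambled pair, and in complex II the 2 lowest libraries were knockdown ones. Complex IV read 1795.8 and 1704.8 CPM against 1888.2, 1700.2 and 1772.4 CPM. Complex V read 3113.0 and 2956.6 CPM against 3177.2, 2902.7 and 3031.0 CPM. Over all nuclear members the sum was 8628.6 ± 367.6 CPM (SD, n = 2) and 8611.9 ± 417.2 CPM (SD, n = 3), so the group means differed by far less than the spread within either group.

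Complex I, the NADH dehydrogenase, has 36 nuclear rows, 32 of them tested, with 14 below and 18 above 0 and a median log2 fold change of 0.01. Its most abundant subunit per kilobase of transcript was NDUFS5, an accessory subunit, at 476.5 ± 8.69 CPM per kilobase in scrambled siRNA (SD, n = 2) and 469.5 ± 22.1 in H3F3A siRNA libraries (SD, n = 3). The 2 largest differences on the low side were in core iron-sulfur subunits. NDUFS8 read 53.4 and 45.2 CPM in scrambled siRNA and 47.1, 40.7 and 39.6 CPM in H3F3A siRNA libraries (log2 fold change -0.22, SE 0.0914, edgeR adjusted p = 0.221). NDUFS7 read 60.3 and 47.3 CPM against 46.2, 48.5 and 45.9 CPM (log2 fold change -0.20, SE 0.0908, edgeR adjusted p = 0.262). In both genes scrambled replicate 1 was the highest library and scrambled replicate 3 lay inside the knockdown range.

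On the high side of complex I stood 3 accessory subunits. NDUFS4, a small subunit of the matrix arm, read 20.7 and 21.0 CPM against 23, 24.5 and 23.7 CPM (log2 fold change 0.19, SE 0.0881, edgeR adjusted p = 0.28). NDUFB4, in the membrane arm, read 38.7 and 38.2 CPM against 44.2, 40.4 and 43.3 CPM (0.15 log2, SE 0.0807, adjusted p = 0.366). For both, every knockdown library was above every scrambled one, as for 16.0% of all tested genes, with gaps that did not survive adjustment. NDUFC2 was counted at only 3.02 and 3.03 CPM against 3.99, 3.27 and 3.79 CPM (0.28 log2, SE 0.166, adjusted p = 0.409), and its interval reached from -0.06 to 0.63.

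Complex II, which oxidises succinate and also belongs to the tricarboxylic acid cycle, was tested in full. SDHC, a membrane anchor, was its most abundant subunit per kilobase, at 215.4 ± 5.05 and 220.3 ± 6.66 CPM per kilobase in scrambled siRNA (SD, n = 2) and H3F3A siRNA (SD, n = 3) libraries. SDHB, the iron-sulfur subunit, read 92.2 CPM in both scrambled libraries and 88.4, 79.8 and 81.0 CPM in the knockdown ones (log2 fold change -0.15, SE 0.0764, edgeR adjusted p = 0.327). It is named after its values were seen, as the member of this complex whose groups did not overlap (17.1% of all tested genes on the lower side). SDHA, the flavoprotein, differed by -0.09, SDHD, the other anchor, by -0.01 and SDHC by 0.03 on the log2 scale.

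Complex III has 11 rows, 10 of them tested, with 6 below and 4 above 0. UQCRH, the hinge protein, was its most abundant gene per kilobase, at 380.5 ± 1.49 CPM per kilobase in scrambled siRNA (SD, n = 2) and 412.3 ± 28.9 in H3F3A siRNA libraries (SD, n = 3). By library it read 230.4 and 229.2 CPM against 268.8, 235.8 and 242.5 CPM (log2 fold change 0.12, SE 0.0776, edgeR adjusted p = 0.48). Its intronless copy UQCRHL read 4.66 and 4.18 CPM against 6.6, 3.86 and 5.44 CPM (0.26 log2, SE 0.177, adjusted p = 0.482). The knockdown libraries lay on both sides of the scrambled ones for UQCRHL, and above them for UQCRH, as for 16.0% of all tested genes.

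The coding sequences of UQCRH and UQCRHL are printed because so little separates them that short reads can be assigned to either or to neither. In the GENCODE release 29 annotation of GRCh38, UQCRH lies on the plus strand with its coding part at chr1:46303767-46316584 in 4 exons, and UQCRHL on the minus strand at chr1:15807374-15807649 in 1 exon. Both coding sequences are 276 bases long and differ at 4 bases, shown in capitals, with 98.6% identity and a longest identical run of 157 bases. This reference may not be the one behind the deposited counts, and the values of UQCRHL are uncertain for this reason.
UQCRH: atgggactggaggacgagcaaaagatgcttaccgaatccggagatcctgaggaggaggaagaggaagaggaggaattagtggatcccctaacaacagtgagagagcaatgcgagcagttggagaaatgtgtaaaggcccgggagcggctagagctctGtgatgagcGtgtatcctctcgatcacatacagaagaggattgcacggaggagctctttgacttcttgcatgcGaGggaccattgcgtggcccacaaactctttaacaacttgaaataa
UQCRHL: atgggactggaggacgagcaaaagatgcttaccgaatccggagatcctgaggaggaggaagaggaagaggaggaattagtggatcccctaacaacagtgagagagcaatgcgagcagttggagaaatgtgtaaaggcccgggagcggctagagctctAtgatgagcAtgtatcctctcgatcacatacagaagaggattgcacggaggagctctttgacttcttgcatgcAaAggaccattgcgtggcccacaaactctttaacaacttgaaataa
Per 100 counts on UQCRH, UQCRHL held 2.02 and 1.82 counts in scrambled siRNA libraries and 2.46, 1.64 and 2.24 in H3F3A siRNA libraries, with overlapping groups.

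UQCRC2, a core protein of complex III, had the lowest log2 fold change of all members and rests on few reads. Its row held 1.06 and 1.11 CPM in scrambled siRNA and 0.972, 0.896 and 0.744 CPM in H3F3A siRNA libraries (log2 fold change -0.32, SE 0.281, edgeR adjusted p = 0.606), with an interval from -0.90 to 0.26. A numbered copy of this gene in the files held 167 counts beside 142 on the row itself, and with both added the log2 fold change was 0.01. UQCRC1, the partner core protein, read 144.0 and 130.7 CPM against 135.6, 121.4 and 128.5 CPM (-0.10 log2, SE 0.0779). Of the catalytic subunits, CYC1, cytochrome c1, differed by -0.15 (SE 0.0794) and UQCRFS1, the Rieske protein, by -0.03 (SE 0.0779) on the log2 scale.

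Complex IV, cytochrome c oxidase, swaps some of its subunits between tissues, and the heart and muscle forms mark mature muscle. COX7C, a subunit with no such pair, was the most abundant per kilobase, at 353.3 ± 9.12 CPM per kilobase in scrambled siRNA (SD, n = 2) and 387.3 ± 25.1 in H3F3A siRNA (SD, n = 3). COX6C, another small subunit, had the largest positive difference among tested complex IV genes, with 81.4 and 82.5 CPM against 98.7, 87.8 and 87.0 CPM (log2 fold change 0.15, SE 0.0789, edgeR adjusted p = 0.334). Its knockdown libraries were all above the scrambled ones, as for 16.0% of all tested genes, and the gene did not pass the test.

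In Rh41 the reads came almost wholly from the ubiquitous forms. COX7A1, the heart and muscle form, read 4.35 and 3.74 CPM in scrambled siRNA and 3.55, 3.41 and 3.72 CPM in H3F3A siRNA libraries (log2 fold change -0.18, SE 0.155, edgeR adjusted p = 0.594). COX7A2, the ubiquitous form, read 165.1 and 163.1 CPM against 183.6, 165.1 and 173.1 CPM (0.08 log2, SE 0.0754). Per kilobase, COX7A1 made up 2.12% and 1.85% of the pair in scrambled siRNA and 1.56%, 1.67% and 1.73% in H3F3A siRNA libraries, a pattern in which the groups do not overlap and no test was made. The transcripts of COX7A1 have 60.5% GC and those of COX7A2 45.8%. With each library's GC trend removed, COX7A1 differed by -0.04 and COX7A2 by 0.03, and the part of GC content in these shares was not tested. COX6A2, also of heart and muscle, held 0 and 3 counts against 0, 2 and 0, whereas COX6A1 read 207.1 and 192.1 CPM against 208.6, 189.8 and 190.1 CPM. COX4I2, the lung form, held 1 and 0 counts against 0 in each knockdown library, and COX8C, a testis form, held 0 in all 5. COX8C also has a numbered copy, likewise with 0 counts, and reads can be lost between such rows. Its 0 therefore says little about its expression. The ubiquitous partners of COX4I2 and COX8C, COX4I1 and COX8A, differed by 0.01 (SE 0.079) and -0.10 (SE 0.0852) on the log2 scale.

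COX6B2, the testis form of COX6B, was counted at 1.34 and 0.674 CPM in scrambled siRNA and 0.804, 0.862 and 0.906 CPM in H3F3A siRNA libraries (log2 fold change -0.23, SE 0.314, edgeR adjusted p = 0.772). Scrambled libraries enclosed the knockdown ones, and without scrambled replicate 1 the difference was 0.34. COX6B1, the ubiquitous form, read 197.1 and 175.5 CPM against 189.8, 172.8 and 175.0 CPM (-0.06 log2, SE 0.0783). Per kilobase, COX6B2 made up 0.131% to 0.231% of the pair.

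Complex V, ATP synthase, has 19 rows, 17 of them tested, with 8 below and 9 above 0. ATP5F1B, the catalytic beta subunit, was the most abundant of all nuclear members per kilobase. It stood at 542.1 ± 9.57 CPM per kilobase in scrambled siRNA (SD, n = 2) and 525.8 ± 21.0 in H3F3A siRNA libraries (SD, n = 3). By library ATP5F1B read 1009.4 and 984.5 CPM against 1011.0, 939.2 and 950.6 CPM (log2 fold change -0.04, SE 0.0756). Its partner in the catalytic head, ATP5F1A, differed by 0.06 (SE 0.0748).

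ATP5F1D, the delta subunit of the central stalk, came nearest to the threshold of all members. It read 143.0 and 111.1 CPM in scrambled siRNA and 107.8, 108.7 and 96.5 CPM in H3F3A siRNA libraries (log2 fold change -0.28, SE 0.092, edgeR adjusted p = 0.0958), with a 95% interval from -0.48 to -0.09. Scrambled replicate 1 stood well above the other libraries, and scrambled replicate 3 just above the highest knockdown library. The difference was -0.09 without scrambled replicate 1, and -0.46 without scrambled replicate 3 (adjusted p = 0.000199). With each library's GC trend removed it was 0.02 (adjusted p = 0.933), and its transcripts have the highest GC content of the tested nuclear members, 69.3%.

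The proton-carrying ring of ATP synthase is encoded by 3 genes whose mature proteins are the same. ATP5MC1 differed by -0.04 (SE 0.0852), ATP5MC2 by 0.05 (SE 0.0792) and ATP5MC3 by -0.07 (SE 0.0747) on the log2 scale, and none was called. ATP5MC2 read 284.3 and 249.5 CPM against 291.9, 267.6 and 271.8 CPM, and ATP5MC3 272.6 and 261.4 CPM against 254.6, 242.2 and 263.7 CPM. ATP5MC1 was lower than both in each library, at 89.3 and 76.6 CPM against 88.1, 78.9 and 75.9 CPM, and its median transcript is also shorter. In the stalk that holds the head still, ATP5PB and ATP5PF had non-overlapping higher groups (0.08 and 0.14 log2), as had 16.0% of all tested genes. ATP5PD and ATP5PO differed by 0.04 and -0.03.

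**Figure D2:**
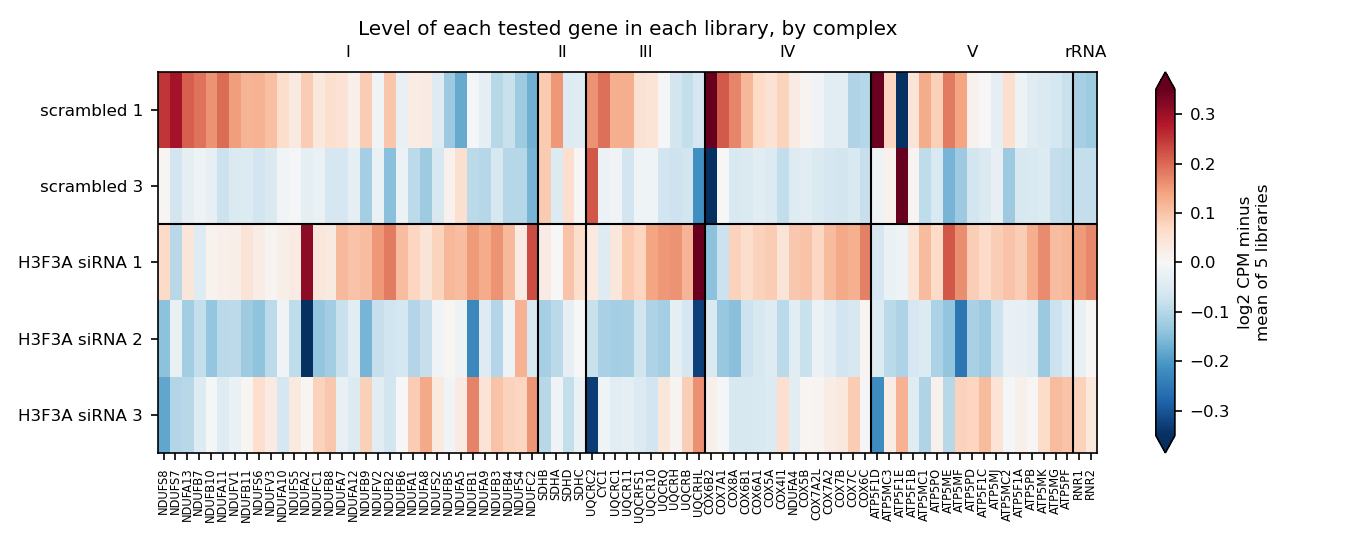
Heat map of each tested member (columns, grouped by complex) in each library (rows), as the log2 deviation of its CPM from the member's mean over the libraries. H3F3A siRNA replicate 1 is above replicate 2 in 73 of 77 nuclear members, with a median difference of 0.159, where the median between the groups is 0.005.

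The nuclear members moved together from library to library, and this did not follow the treatment. H3F3A siRNA replicate 1 was above H3F3A siRNA replicate 2 in 73 of 77 members (94.8%), with a median difference of 0.159 log2, where 49.9% of all tested genes were higher. By complex this held for 30 of 32 genes of complex I, 4 of 4 of complex II, 10 of 10 of complex III, 13 of 14 of complex IV and 16 of 17 of complex V. Scrambled replicate 1 was above scrambled replicate 3 in 61 members (79.2%, beside 53.8% of all genes), with a median difference of 0.071. The 82 mitochondrial ribosomal protein genes behaved much alike: 76 (92.7%) were higher in H3F3A siRNA replicate 1 than in replicate 2, with a median of 0.13, and 70 (85.4%) higher in scrambled replicate 1 than in replicate 3, so the pattern is not particular to the members. The members share their libraries, so these counts describe pairs of libraries and carry no test.

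Transcript length moved with the contrast between the 2 knockdown libraries. The members are short, with a median transcript of 750 bases where all tested genes have 2472. Among other genes, the median difference of replicate 1 minus replicate 2 was 0.077 log2 for 1000 genes under 800 bases and -0.082 for 3353 genes of 4000 bases and more. Members of the same length class stood above it, with a median of 0.177 under 800 bases (42 of 44 higher in replicate 1) and 0.112 between 2000 and 4000 bases (8 of 8), where other genes had -0.002. Whether length accounts for part of the members' shift was not tested.

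**Figure D3:**
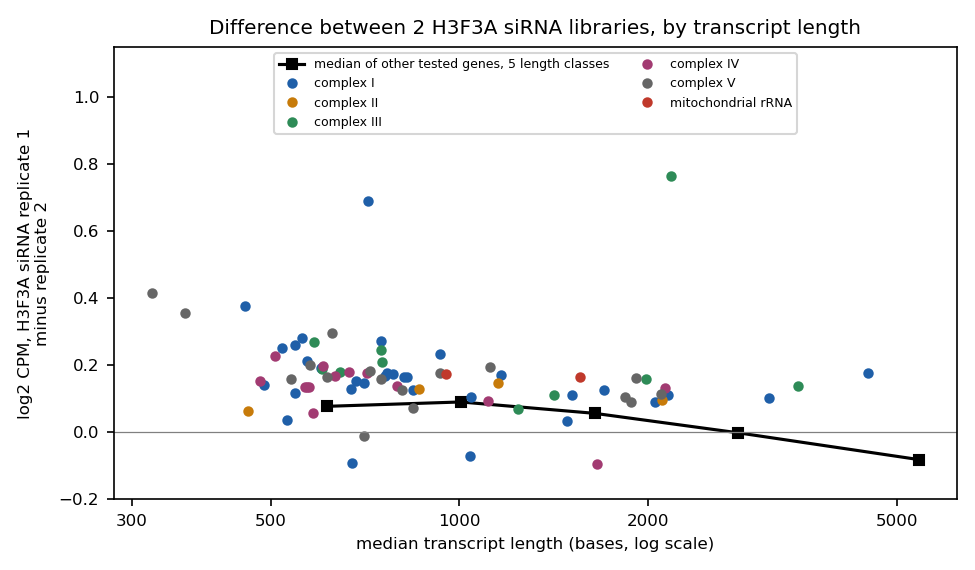
Difference between H3F3A siRNA replicates 1 and 2 (log2 CPM, y axis) against median transcript length (bases, log scale) for each tested member, with the median of other genes in 5 length classes as a line. Most members lie above the line.

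GC content ordered the members' fold changes. Of the 20 nuclear members with transcripts of at least 55% GC, 18 had a log2 fold change below 0, with a median of -0.103, and of the 19 under 45% GC, 18 had one above 0, with a median of 0.089. All tested genes of the same classes had medians of -0.138 and 0.092. Across the 77 members Spearman's rho between GC content and log2 fold change was -0.70, and across 14379 genes it was -0.52. Genes are not independent replicates, and every point comes from the same 5 libraries. The relation among members was -0.29 without scrambled replicate 1 and -0.81 without scrambled replicate 3.

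The GC-rich members stood out in scrambled replicate 1. The median log2 deviation of the 20 members was 0.176 in that library, -0.051 in scrambled replicate 3, and 0.033, -0.116 and -0.036 in H3F3A siRNA replicates 1, 2 and 3. With a GC trend removed from each library, 17 of the 20 were above 0 with a median of 0.031, and the relation across the 77 members was 0.21. NDUFS7 then differed by 0.06 and NDUFS8 by -0.04. NDUFS4, at 42.8% GC, differed by 0.11.

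**Figure D4:**
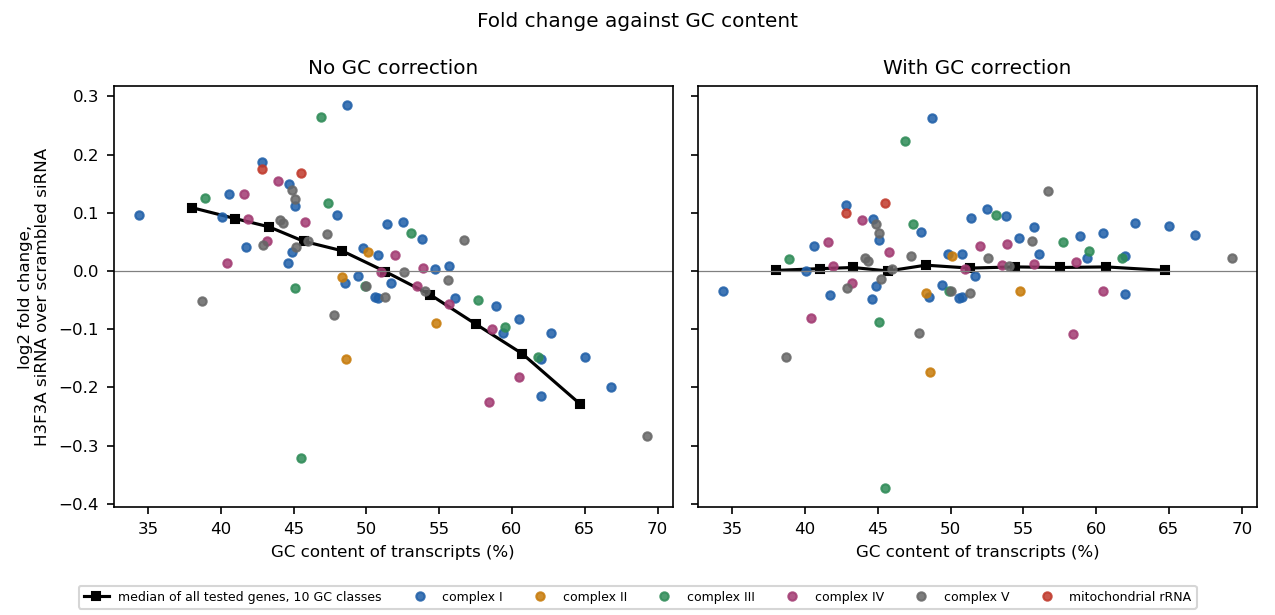
Log2 fold change (H3F3A siRNA over scrambled siRNA, y axis) of each tested member against the GC content of its transcripts (percent, x axis), without and with removal of a GC trend in each library. The line is the median of all tested genes in 10 GC classes, which runs from 0.109 in the lowest to -0.229 in the highest without the correction, and most members lie near it.

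Reads on the mitochondrial ribosomal RNAs were higher in every knockdown library than in either scrambled one, without passing the adjusted threshold. The same held for 16.0% of all tested genes whatever their adjusted p. RNR1, the RNA of the small mitochondrial ribosomal subunit, read 473.2 and 484.3 CPM in scrambled siRNA and 568.8, 503.7 and 542.5 CPM in H3F3A siRNA libraries (log2 fold change 0.17, SE 0.0775, edgeR adjusted p = 0.263). RNR2, the RNA of the large subunit, read 4395.5 and 4522.3 CPM against 5383.8, 4806.5 and 4916.9 CPM (0.18 log2, SE 0.0807, adjusted p = 0.266). Both 95% intervals ran from 0.01 to 0.33 or 0.34. With the GC trend removed the differences were 0.12 and 0.10.

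Together the 2 rRNAs took 0.468% and 0.499% of assigned reads in scrambled siRNA and 0.604%, 0.541% and 0.55% in H3F3A siRNA libraries. The libraries were made by poly-T capture, so these are the shares that passed it. RNR2 held 9.29 and 9.34 reads per RNR1 read in the scrambled libraries and 9.47, 9.54 and 9.06 in the knockdown ones, with overlapping groups. H3F3A siRNA replicate 1, in which nuclear members were highest, also had the highest rRNA share.

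The mitochondrial genome's 22 transfer RNA rows, which lie outside the name rule, were read beside them. Reads on these rows need not be mature transfer RNA, since mitochondrial transcripts are cut from long precursors in which transfer RNAs separate the other genes. Of 15 tested rows, 12 were above 0 and 3 below, with a median log2 fold change of 0.127, and 7 were higher and 1 lower at an unadjusted p under 0.05, where 5.91% of all genes were higher and 10.9% lower. TRNM, the methionine row, rose from 1.95 and 1.58 CPM to 3.58, 3.17 and 3.56 CPM (log2 fold change 0.96, SE 0.189, edgeR adjusted p = 0.00708), and was the only one called. Every knockdown library lay above every scrambled one for TRNM, as for 16.0% of all tested genes. TRNM rests on few reads, 57 and 47 counts against 107, 92 and 110. The sum of both stranded columns held 677 counts for TRNM where the unstranded column held 413. From that sum its log2 fold change was 0.65 (edgeR adjusted p = 0.0199), so its level is uncertain. Without H3F3A siRNA replicate 1 the log2 fold change of TRNM was 0.93 (edgeR adjusted p = 0.1), where 0.0958% of all genes were called. DESeq2 called 0 of these rows, but it gave no adjusted p to NDUFC2, which held 509 counts. TRNM, with 413 counts, may not have received one either, so this 0 cannot decide about TRNM. Without scrambled replicate 3, TRNM and TRNP were called (15.1% of all genes), and without H3F3A siRNA replicate 3, TRNM and TRNS1 (1.97%). TRNS1, the most abundant of them, read 374.0 and 419.4 CPM against 576.1, 452.1 and 431.6 CPM (0.29 log2, SE 0.102, adjusted p = 0.127).

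**Figure D5:**
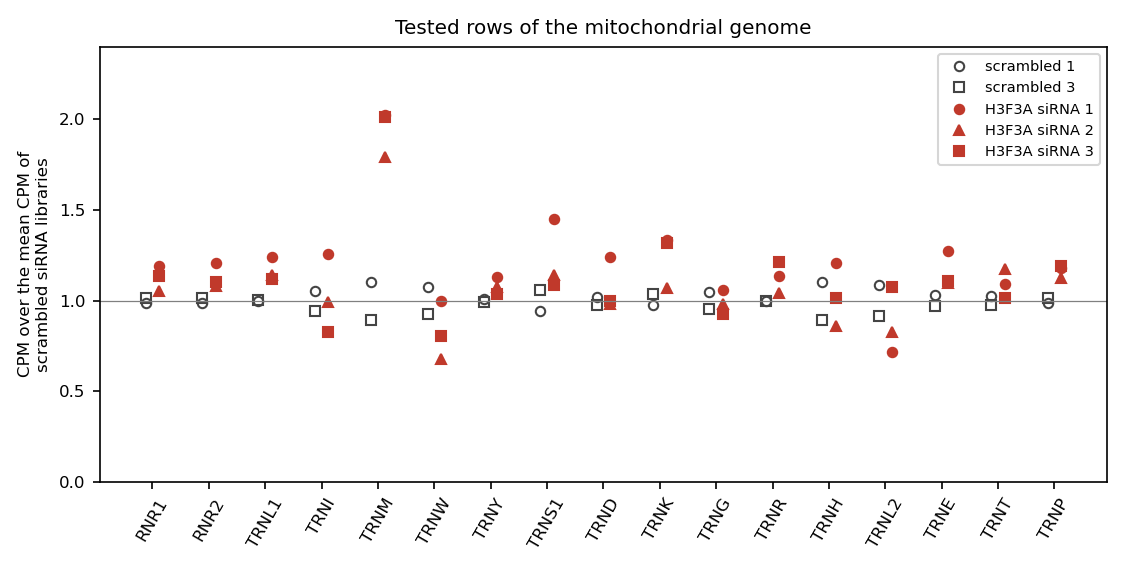
CPM of each tested mitochondrial row in each library, divided by the mean CPM of the 2 scrambled siRNA libraries (y axis, linear). RNR1 and RNR2 lie slightly above 1 in all 3 H3F3A siRNA libraries, and TRNM stands apart from the other rows.

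Genes that supply or control the respiratory chain were read from 5 lists, beside 3.2% of all tested genes called and 16.8% at an unadjusted p under 0.05. Of 51 tested assembly factors, which build the complexes, 0 were called by edgeR, with 4 at an unadjusted p under 0.05 and a median log2 fold change of 0.009. Of 18 tricarboxylic acid cycle genes, which feed electrons to the chain, 0 were called, with 2 at an unadjusted p under 0.05 and a median of -0.002. Of 40 mitochondrial DNA expression genes 1 fell, of 18 transcriptional regulators 1 fell, and of 82 mitochondrial ribosomal proteins 1 fell, with none called higher, where 2.69% of all genes were called lower. At an unadjusted p under 0.05 these 3 lists had 3, 4 and 9 genes, all of them lower. Their medians were 0.048, -0.047 and -0.016, beside 0.007 over all tested genes.

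POLRMT, the RNA polymerase that transcribes mitochondrial DNA, fell from 266.6 and 213.7 CPM to 176.6, 182.7 and 191.7 CPM, 1.31-fold lower (log2 fold change -0.39, SE 0.0854, edgeR adjusted p = 0.0145). AURKAIP1, a protein of the small mitochondrial ribosomal subunit, fell from 298.1 and 234.0 CPM to 210.4, 192.8 and 216.0 CPM, 1.29-fold lower (-0.37, SE 0.0894, adjusted p = 0.0268). TFE3, a transcription factor of lysosomal and mitochondrial genes, fell from 75.0 and 68.9 CPM to 55.6, 57.3 and 60.1 CPM, 1.25-fold lower (-0.32, SE 0.0777, adjusted p = 0.0253). In all 3 the groups did not overlap, as in 17.1% of all tested genes on the lower side. The 3 were named because the same values called them, so this adds no support. None of the 3 calls held without H3F3A siRNA replicate 1 or replicate 2, where 0.0958% and 1.13% of all genes were called. In the same gene order, the log2 fold changes were -0.36, -0.38 and -0.29 without replicate 1 (adjusted p 0.184, 0.194 and 0.199) and -0.38, -0.32 and -0.31 without replicate 2 (0.0733, 0.154 and 0.123), close to those over all libraries. TFE3 was also not called without replicate 3 (-0.35, adjusted p 0.0552). None of the 3 was called with the GC trend removed (log2 fold changes -0.14, -0.10 and -0.19, edgeR adjusted p 0.238, 0.496 and 0.121). With a replicate block and GC correction together, POLRMT (-0.12, edgeR adjusted p = 0.0498) and TFE3 (-0.18, adjusted p = 0.0115) were called. AURKAIP1 was not (-0.05, adjusted p = 0.611), where 8.07% of all genes were called. Without scrambled replicate 1, which leaves 1 control library, the log2 fold changes were -0.22, -0.18 and -0.26.

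The best-known activators of respiratory genes were not called. PPARGC1A, the coactivator that drives mitochondrial biogenesis, was counted at a low level, 1.1 and 1.11 CPM against 0.905, 0.827 and 1.07 CPM (log2 fold change -0.24, SE 0.274, edgeR adjusted p = 0.714). TFAM, which packages and helps transcribe mitochondrial DNA, read 90.5 and 98.5 CPM against 105.2, 100.7 and 104.5 CPM (0.13, SE 0.0758, adjusted p = 0.403). NRF1, a factor for many nuclear respiratory genes, read 31.1 and 29.8 CPM against 30.4, 30.3 and 27.9 CPM (-0.04, SE 0.0844, adjusted p = 0.841).

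Since nuclear respiratory genes are known for shared promoter elements, their promoters were searched in RefSeq's GRCh38.p14 table, which gives 250 bases before to 50 after each start. It held 82 promoters of 69 nuclear members, and 19 members had no entry. On either strand, the NRF1 element, GCGCA and GCGC with 1 base of any kind between them, was present in 20.7% of member promoters and 5.78% of all 35116 promoters. The ETS element CCGGAAG, which GABPA binds, was present in 26.8% and 10.3%, and the YY1 element AAGATGGC in 15.9% and 2.89%. The SP1 element GGGCGG was present in 62.2% and 45%, CCAAT in 35.4% and 34.6%, TATAAA in 8.54% and 11.5%, and the ESRRA element TCAAGGTCA in 1.22% and 0.353%. Median GC content was 59.7% in the members' promoters and 58.7% in all. A match describes the letters of the window and shows no binding.

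The promoters of UQCR11, ATP5PF and SDHD are printed to show the NRF1, ETS and YY1 elements, in capitals, in members of 3 complexes. Each run is the 250 bases before the start, read 5′ to 3′ on the gene's strand: chr19:1605463-1605712 (minus) for UQCR11, chr21:25734905-25735154 (minus) for ATP5PF and chr11:112086623-112086872 (plus) for SDHD.
UQCR11: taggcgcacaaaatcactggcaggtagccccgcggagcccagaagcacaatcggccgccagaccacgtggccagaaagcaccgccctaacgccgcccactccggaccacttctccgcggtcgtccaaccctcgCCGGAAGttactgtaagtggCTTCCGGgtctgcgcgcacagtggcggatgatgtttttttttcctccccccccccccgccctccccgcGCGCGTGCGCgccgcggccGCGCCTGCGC
ATP5PF: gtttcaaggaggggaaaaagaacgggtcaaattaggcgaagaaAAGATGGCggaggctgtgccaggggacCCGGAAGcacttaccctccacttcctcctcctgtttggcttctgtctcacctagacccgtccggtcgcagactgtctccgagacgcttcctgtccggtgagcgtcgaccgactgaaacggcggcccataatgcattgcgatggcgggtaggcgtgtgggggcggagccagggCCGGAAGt
SDHD: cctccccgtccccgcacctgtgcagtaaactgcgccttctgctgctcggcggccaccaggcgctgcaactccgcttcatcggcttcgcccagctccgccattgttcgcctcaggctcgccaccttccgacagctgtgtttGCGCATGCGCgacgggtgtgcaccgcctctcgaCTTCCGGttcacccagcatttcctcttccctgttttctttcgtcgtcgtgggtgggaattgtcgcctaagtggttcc
UQCR11 has 2 NRF1 and 2 ETS matches, ATP5PF has 2 ETS matches and 1 YY1 match, and SDHD has 1 NRF1 and 1 ETS match. UQCR11 read 86.0 and 75.1 CPM in scrambled siRNA and 83.9, 72.6 and 76.9 CPM in H3F3A siRNA libraries (log2 fold change -0.05, SE 0.0834). ATP5PF read 84.6 and 84.0 CPM against 96.7, 86.3 and 95.6 CPM (0.14, SE 0.0777), and SDHD 65.9 and 70.8 CPM against 72.7, 66.5 and 64.1 CPM (-0.01, SE 0.0799).

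Fold changes were close to 0 with and without each element. The median log2 fold change was -0.016 for 15 tested members with the NRF1 element and 0.007 for 46 without it. For the ETS element it was 0.005 over 19 members and 0.002 over 42, and for the YY1 element 0.006 over 10 and -0.001 over 51.

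The rows limit what can be said of some members. Not tested, for too few reads, were ATP5IF1, ATP5MGL, COX4I2, COX6A2, COX7B2, COX8C, NDUFA3, NDUFA6, NDUFS1, NDUFS3 and UQCRBP1. Among them NDUFS1 and NDUFS3 encode core subunits of complex I and ATP5IF1 the inhibitor of ATP synthase. Numbered copies of the same gene exist in the files for 8 members, so that reads can be split or lost, and for NDUFA6 the 4 copies held 956 counts. Low values of these rows therefore say little about the genes' expression. The joined rows NDUFC2-KCTD14 and ATP5MF-PTCD1 held 0 counts over all libraries. Reads that fit a joined row and a member can be left out as ambiguous. NDUFC2 and ATP5MF may therefore be undercounted, which was not tested. NDUFA2 held 218 counts in the unstranded column and 6737 in the sum of both stranded columns, and ATP5ME 818 and 8565, where all genes together gave a ratio of 1.07. The libraries do not mark the strand, so the stranded sum also takes in reads of an overlapping gene, and the levels of NDUFA2, ATP5ME and NDUFB2 (a ratio of 4.86) are uncertain in the same way.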

How the data were processed

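Poly-A RNA of Rh41 cells was measured in 5 libraries. Groups and replicate numbers came from the sample titles, which do not say whether replicates were separate cultures, so p-values cover only the spread among libraries, possibly a technical one. Poly-T beads captured the mRNA and a NEBNext Ultra kit, which does not mark strand, was used for library preparation, per the labels' protocols. CASAVA, bcl2fastq, STAR 2.5, HTSeq 0.6.1, DESeq2 and hg19 are named in the submitters' processing notes, with no roles. The authors deposited raw counts of reads by gene, and the unstranded column was used. Lines for unmapped, multimapping (6.28% to 6.42% of reads), unassigned and ambiguous reads (4.45% to 4.56%) were left out.

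Genes passing filterByExpr in edgeR 4.0.16 (R 4.3.3; minimum count 10, minimum total 15) were scaled by TMM and tested by a quasi-likelihood fit without covariates (biological coefficient of variation 6.53%). Calls needed a Benjamini-Hochberg adjusted p under 0.05 over all 15859 genes. For CPM, counts were divided by TMM-scaled totals. Transcript length and GC content are medians over GENCODE release 29 transcripts, present for 90.7% of tested genes, so per-kilobase levels are approximate. The GC correction removed a loess trend (span 0.5) per library. Per 10 points of GC, deviations in log2 CPM sloped by 0.147 and -0.00656 in scrambled siRNA libraries. In H3F3A siRNA libraries the slopes were -0.061, -0.04 and -0.0397. The groups do not overlap in slope, so the correction can also remove a group difference linked to GC, which was not tested. Alternatives were DESeq2 1.42.0, other scalings, no filter, each library left out, a replicate block, GC correction, stranded sums and copies added. The last of these and the transfer RNA rows were chosen after seeing the data.

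Members and lists were chosen with earlier results of these data known. Named were H3F3A, the mitochondrial members, the 5 largest log2 fold changes in each direction among tested nuclear members, the most abundant member per kilobase of each complex, the isoform groups, called genes of the lists, PPARGC1A, TFAM, NRF1 and POLRMT. Other names, such as SDHB, CYC1, the members with printed promoters and transfer RNA rows, were chosen after their values were seen.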

Additional observations from a re-analysis of the deposited data

How the results depend on the processing

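Under the alternatives, the count of nuclear members called was 0 except with no count filter (1, ATP5F1D), without scrambled siRNA replicate 3 (7: CYC1, NDUFS8, ATP5F1D, NDUFS7, NDUFA11, NDUFB7 and NDUFA13, where 15.1% of all genes were called), and with the replicate block and GC correction together (4: SDHB, UQCRQ, NDUFA8 and ATP5MC2, where 8.07% were). Leaving out each library gave 0 to 7, where 0.0958% to 15.1% of all genes were called. The block with GC correction also called both mitochondrial members, 2 in all (RNR1 0.16, adjusted p = 0.0031, and RNR2 0.13, adjusted p = 0.0241). The 3 calls in the 5 supporting lists became 5 with no count filter, 1 with the replicate block, 0 with GC correction, 9 with block and GC correction, and 0 with GC correction without scrambled siRNA replicate 1. In the same order, 2.8%, 3.62%, 1.85%, 8.07% and 0.415% of all genes were called. Leaving out each library gave 0 to 30 list calls: 0 without scrambled replicate 1 or H3F3A siRNA replicate 1 or 2, and 30 of 209 without scrambled replicate 3. In the same order, 0.623%, 0.0958%, 1.13% and 15.1% of all genes were called. From the sum of both stranded columns the mean rRNA shares were 0.45% and 0.526%, from 0.484% and 0.565%. Signs turned for UQCRC2 with copies added (0.01), for ATP5F1D with GC correction (0.02; 0.01 with the block; 0.03 without scrambled replicate 1), for NDUFS7 likewise (0.06, 0.05 and 0.09), and for COX6B2 without scrambled replicate 1 (0.34, and 0.38 with GC correction; -0.64 without scrambled replicate 3). The cause of these changes was not tested. GC correction turned the sign of 27 of 79 members, and upper-quartile scaling that of 7, all within 0.0211 log2 of 0. The replicate numbers share only 2 values between groups and no label ties them, and deviations of same-numbered libraries correlated at 0.112 and 0.0487, so the block (0 members called) is given here only. The mitochondrial share over protein-coding genes alone was not run. The 11 members not tested had too few counts on their rows. Of the transfer RNA rows, leaving out each library called 0 to 2 (0.0958% to 15.1% of all genes), the replicate block 3 (3.62%) and the block with GC correction 7 (8.07%). These rows have no GC value, so no GC trend was removed from their counts.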
